A study of Mus musculus with 6 samples.

Results

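Collagens are the triple-helical proteins of the extracellular matrix, and the 37 collagen chains described here were every gene of the deposited table whose symbol has the form Col, a number, a and a number, out of 16854 genes. GENCODE M21, a mouse gene annotation on GRCm38, lists 44 protein-coding collagen genes; the remaining 7 (Col4a6, Col6a5, Col6a6, Col9a1, Col9a2, Col13a1 and Col19a1) were not analysed here. RNA came from C2C12, a mouse myoblast line that fuses into myotubes when serum is withdrawn. The 3 knockdown libraries came from cells with a stable short hairpin against Adamtsl2, a secreted glycoprotein of the matrix, and the 3 control libraries came from cells with a scrambled hairpin. All 6 were taken on day 3 in medium with 2% horse serum. A single hairpin line is compared with a single control line as far as the labels say, so the loss of Adamtsl2 cannot be told apart from other effects of that hairpin or from differences between the lines. No label says that replicates were separate cultures, so p-values measure the spread between these libraries, which may be technical.

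Each collagen molecule is a trimer of chains from 1, 2 or 3 genes, wound together in the endoplasmic reticulum and secreted. Fibrillar collagens form the cross-banded fibrils that carry tension, network collagens form sheets such as the basement membrane around each muscle fibre, and FACITs (fibril-associated collagens with interrupted triple helices) coat fibrils. Type VI collagen builds beaded microfibrils, transmembrane collagens sit in the cell membrane, and multiplexins are basement membrane collagens that carry heparan sulfate or chondroitin sulfate chains. In muscle, fibroblasts are the main source of fibrillar collagen, while myoblasts in culture make several types themselves. The chains were grouped by structure into 11 fibrillar, 8 network, 6 FACIT, 4 microfibrillar, 3 transmembrane, 2 multiplexin and 3 other chains.

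Sequences just upstream of 4 genes and 1 gap between genes are shown as examples, not chosen by size of change alone. Col1a1 and Col14a1, which changed widely, had no upstream sequence in the RefSeq table used. Col8a1 and Col8a2 encode partner chains that moved in opposite directions, Col4a5 had the largest positive change, Col3a1 had the highest level per kilobase in both groups, and Col4a3 and Col4a4 stand head to head. The stretches are from RefSeq on GRCm38.p6, are written 5′ to 3′ on the strand given, and end at the last base before an annotated exon. Capitals mark 4 motifs, searched on both strands: the GC box with the letters GGGCGG, the CCAAT box, the core TATAAA of a TATA box, and an E-box with the letters CAGCTG.
Col8a1 upstream of the start (chr16:57754738-57754987, minus strand): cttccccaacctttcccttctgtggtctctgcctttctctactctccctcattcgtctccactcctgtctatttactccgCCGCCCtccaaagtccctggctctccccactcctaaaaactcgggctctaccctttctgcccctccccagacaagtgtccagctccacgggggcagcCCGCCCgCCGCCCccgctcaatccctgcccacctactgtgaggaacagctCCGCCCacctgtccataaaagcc
Col8a2 upstream of the start (chr4:126286544-126286792, plus strand): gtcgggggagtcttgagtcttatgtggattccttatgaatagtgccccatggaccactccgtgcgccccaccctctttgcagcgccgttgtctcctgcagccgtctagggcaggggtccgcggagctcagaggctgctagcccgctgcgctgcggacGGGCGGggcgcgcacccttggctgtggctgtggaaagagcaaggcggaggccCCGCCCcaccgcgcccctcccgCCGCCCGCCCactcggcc
Col4a5 upstream of the first exon (chrX:141475169-141475384, plus strand): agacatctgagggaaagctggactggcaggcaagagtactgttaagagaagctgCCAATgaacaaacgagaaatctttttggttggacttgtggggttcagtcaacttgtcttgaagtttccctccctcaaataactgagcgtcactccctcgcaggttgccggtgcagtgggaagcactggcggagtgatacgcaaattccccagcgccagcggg
Col3a1 upstream of the start (chr1:45311288-45311537, plus strand): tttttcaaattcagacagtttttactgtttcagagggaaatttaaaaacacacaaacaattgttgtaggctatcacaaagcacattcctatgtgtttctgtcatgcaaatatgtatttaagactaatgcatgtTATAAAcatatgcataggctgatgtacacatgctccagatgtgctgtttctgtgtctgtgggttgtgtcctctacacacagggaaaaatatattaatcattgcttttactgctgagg
Gap between the starts of Col4a4 and Col4a3 (chr1:82586850-82586920, plus strand): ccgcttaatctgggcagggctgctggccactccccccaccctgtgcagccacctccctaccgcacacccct
The stretches of Col8a1, which rose, and of Col8a2, which fell, each held 4 GC boxes, and the last 2 in Col8a2 overlap. The Col4a5 stretch held 1 CCAAT box and that of Col3a1 held 1 TATAAA, and the 71 bases between Col4a4 and Col4a3 held none of the 4 motifs. Of the chains, 28 matched the RefSeq table, in 30 windows of 250 bases before the start, untrimmed; that of Col4a5 runs into the annotated exon and holds 1 GC box not in the stretch shown. A GC box stood in 18 of these 30 windows (60%), against 32.7% of all 32851 windows in the table. The CCAAT box stood in 12 collagen windows (40.0% against 33.8% of all), TATAAA in 4 (13.3% against 12.4%) and CAGCTG in 4 (13.3% against 13.0%). A match here is a run of letters, with no test of binding.

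The deposited values are normalised counts, in which the authors scaled each library's reads by its own size factor. Recovered read totals were 39913603 to 49367857 in the knockdown libraries and 37346439 to 50329438 in the control libraries. Adamtsl2 measured 23.2, 21.7 and 7.83 normalised counts in knockdown libraries 1 to 3, against 1325, 1266 and 1307 in control libraries 1 to 3, and was lower by 6.26 ± 0.41 on the log2 scale (SE; limma, adjusted p = 0.00011). Knockdown library 3 stood apart: its log2 values correlated with those of the other knockdown libraries at 0.904 and 0.907 across genes, where those 2 correlated with each other at 0.995. Its collagen values were low, with a median ratio to the mean of knockdown libraries 1 and 2 of 0.569 over collagen chains and 0.965 over all genes, so collagen results are given with and without it. Markers of cell state differed too. All 8 skeletal muscle markers (among them Myog, Ckm and Acta1) were lower in knockdown, where 23.5% of all genes tested were. They summed to 7530 to 8616 normalised counts in knockdown libraries and 1030633 to 1050820 in control libraries. Of 7 fibroblast markers measured, Dcn, Cd34 and Ly6a were higher and Pi16 was lower, beside 21.7% of all genes higher and 23.5% lower. The 7 summed to 112713 to 189921 in knockdown libraries against 8779 to 8978 in control libraries. The 2 endothelial markers measured, of 5 listed (Pecam1 and Tek), summed to 18.2 to 90.5 in knockdown and 6.32 to 6.65 in control libraries. Pecam1 was high only in knockdown library 3 (68.2), and Tek was called higher but reached 10 normalised counts only in knockdown. The 3 macrophage markers, of 5 listed (Cd68, Csf1r and Itgam), summed to 63.8 to 130 in knockdown and 98.1 to 139 in control libraries. Itgam was called lower but reached 10 only in control libraries, and Cd68 and Csf1r did not pass. Csf1r was highest in knockdown library 3 (72.7). No marker measured was at 0 in all libraries of a group. Their part in the collagen results was not tested, and in these bulk samples fewer cells of a type cannot be told apart from less RNA per cell.

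Most collagen chains that changed fell, and the pool of collagen messenger RNA was smaller in the knockdown libraries. Collagen reads made up 2.71%, 2.63% and 1.10% of all reads in knockdown libraries 1 to 3, against 3.63%, 3.82% and 3.49% in control libraries 1 to 3 (Wilson 95% intervals at most 0.0123 percentage points wide, for counting error only). The groups did not overlap, and the lowest library was knockdown library 3. Of 37 chains, 35 reached 10 normalised counts in at least 3 libraries and were tested with limma on log2(normalised count + 1), a scale that understates the change of low genes. At an adjusted p of 0.05, 14 were lower, 5 were higher and 16 did not pass, where 45.2% of all 16245 genes passed (23.5% lower and 21.7% higher). The median log2 fold change was -0.87 over the tested chains and -0.001 over all genes tested. Without knockdown library 3, 20 chains were lower, 8 were higher and 7 did not pass, beside 78.5% of all genes (39.9% lower and 38.6% higher), and the median was -0.52. That fit rests on knockdown libraries 1 and 2, which correlated at 0.995, so its small adjusted p-values, also those given below, measure a small spread. The libraries of the groups did not overlap for 27 of the 35 chains, against 62.6% of all genes. The authors' deposited table gives an adjusted p under 0.05 for 17 lower and 7 higher chains, against 51.7% of the genes with a value there. Col4a5, Col9a3 and Col2a1 reached the minimum only in the group where they were high. Col14a1, Col17a1, Col25a1 and Col26a1 reached it in 3 libraries only in that group, and in fewer libraries of the other group. The calls of Col4a5, Col9a3, Col14a1, Col25a1 and Col26a1 are in the counts above, though the filter kept these genes through the group where they were high. The plot of fold changes by chain sets the fits with and without knockdown library 3 side by side.

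**Figure D1:**
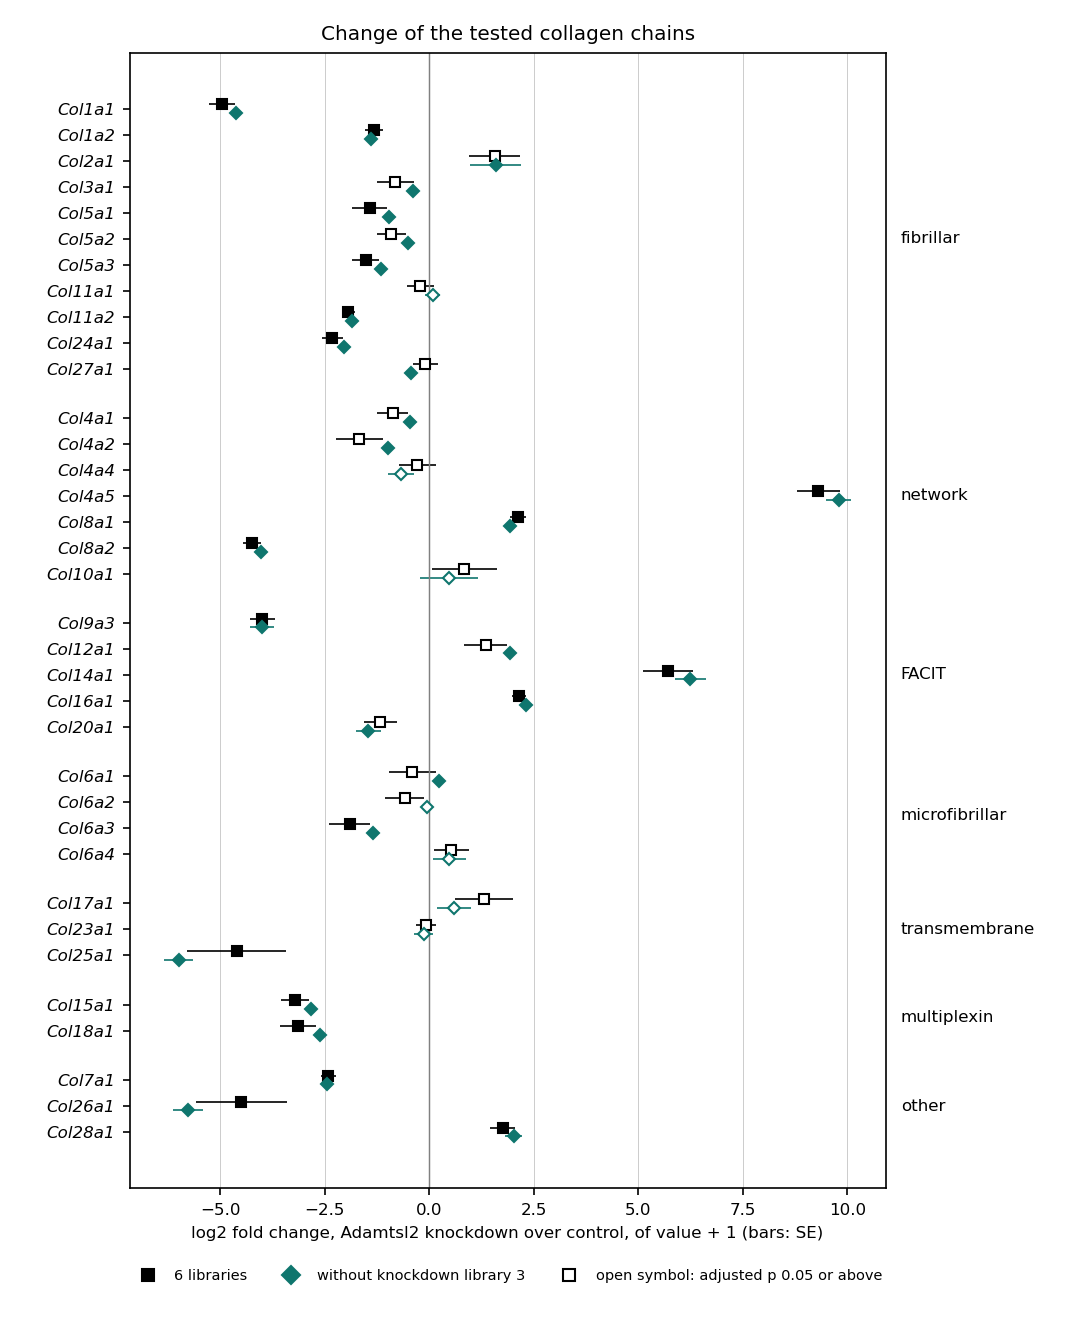
Log2 fold change (knockdown over control, on the log2(normalised count + 1) scale) of the 35 tested collagen chains, grouped by class, with SE bars, from all 6 libraries and without knockdown library 3. Col4a5 and Col14a1 lie far to the positive side, and Col1a1, Col25a1, Col26a1, Col8a2 and Col9a3 far to the negative side. Col6a1 and Col11a1 change sign between the fits.

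The 11 fibrillar chains gave 6 lower, 0 higher and 5 that did not pass, beside 23.5% of all genes lower and 21.7% higher. The largest fall was in Col1a1, the α1 chain of type I collagen, the main collagen of tendon, skin and bone. Col1a1 (chr11:94936224-94953042, plus strand) measured 13552, 12103 and 6475 normalised counts in knockdown libraries 1 to 3. Control libraries 1 to 3 had 310993, 342955 and 298390. Every knockdown library was far below every control library, and the change was -4.96 ± 0.31 (log2, SE; adjusted p = 9.7e-05), or -4.63 without knockdown library 3. Col1a2, which encodes the α2 chain of the same trimer, fell by 1.32 ± 0.22 on the log2 scale (adjusted p = 0.0039). It measured 103002, 99473 and 116910 in knockdown libraries 1 to 3, against 263641, 274632 and 259673 in control libraries 1 to 3. Knockdown library 3 was here the highest of its group, the reverse of its place for Col1a1.

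Type III collagen, a homotrimer of the Col3a1 product that forms fine fibrils with type I, had the most abundant collagen messenger RNA per kilobase in both groups (51770 and 84039 normalised counts per kb on average in knockdown and control). Col3a1 measured 362051, 356900 and 145200 normalised counts in knockdown libraries 1 to 3, against 459949, 484948 and 457882 in control libraries 1 to 3. The groups did not overlap, but knockdown library 3 lay far below the others, and the difference of -0.81 ± 0.44 did not pass (adjusted p = 0.18). Without that library it was -0.38, with an adjusted p of 0.0018. Col5a2 lies 24614 bases from Col3a1 on chromosome 1. Its product pairs with that of Col5a1 in type V collagen, which nucleates type I fibrils.

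Among the type V genes, Col5a3 fell by 1.52 ± 0.32 (log2; adjusted p = 0.010), with 8189, 7827 and 3702 normalised counts in knockdown libraries 1 to 3 against 17867, 17865 and 17519 in control libraries 1 to 3. Col5a1 measured 45304, 41630 and 16184 in knockdown libraries 1 to 3 and 84392, 86689 and 80379 in control libraries 1 to 3. Its fall of 1.42 ± 0.42 passed in the full comparison (adjusted p = 0.034) but not when any 1 control library was left out (adjusted p 0.097 to 0.11); without knockdown library 3 the change was -0.95, with an adjusted p of 2.5e-07. The remaining gene of the type, Col5a2, had 45279, 44723 and 20212 in knockdown libraries 1 to 3, against 63789, 66365 and 63034 in control libraries 1 to 3. Every control library was above every knockdown library for all 3 genes, yet Col5a2 at -0.90 ± 0.35 did not pass in limma (adjusted p = 0.079). It passed with DESeq2 (-0.81, adjusted p = 0.042) and without knockdown library 3 (-0.52, adjusted p = 8.4e-06).

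The minor fibrillar chains did not move together. Col11a2, a type XI chain best known from cartilage and the inner ear, fell by 1.94 ± 0.16 (adjusted p = 0.00023), with 110, 110 and 90.5 normalised counts in knockdown libraries 1 to 3 against 406, 385 and 402 in control libraries 1 to 3. Its trimer partner Col11a1 had 136, 98.7 and 61.5 in knockdown libraries 1 to 3 and 113, 94.7 and 121 in control libraries 1 to 3, so the groups overlapped (-0.21 ± 0.32, adjusted p = 0.63; 0.09 and 0.68 without knockdown library 3). Col24a1, a fibrillar chain of developing bone and cornea, fell by 2.31 ± 0.25 (adjusted p = 0.00076). It measured 220, 207 and 121 in knockdown libraries 1 to 3 against 876, 930 and 844 in control libraries 1 to 3. Col27a1, a fibrillar chain of the growth plate, had its highest value in knockdown library 3 (967), while knockdown libraries 1 and 2 (499 and 453) lay below the controls (618 to 669). Its difference was -0.09 ± 0.30 in all libraries (adjusted p = 0.83) and -0.43 without knockdown library 3, where the adjusted p was 0.00063. Col2a1, the cartilage collagen, was at 13.3 to 15.1 in knockdown libraries and 1.26 to 9.50 in control libraries, so it reached the minimum for testing only in knockdown. At 1.57 ± 0.61 it did not pass (adjusted p = 0.082) unless knockdown library 3 (1.59, adjusted p = 0.033) or control library 3 (2.10, adjusted p = 0.039) was left out. The 3 chondrocyte markers measured were Sox9, Comp and Col2a1 itself, of 5 listed. They summed to 2259 to 5639 normalised counts in knockdown and 1175 to 1458 in control libraries, nearly all of it Sox9. Sox9 and Comp were called higher, where 21.7% of all genes were. Comp reached the minimum only in knockdown, and Sox9 had a limma adjusted p of up to 0.12 with 1 library left out. The part of these markers in the chains above was not tested.

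**Figure D2:**
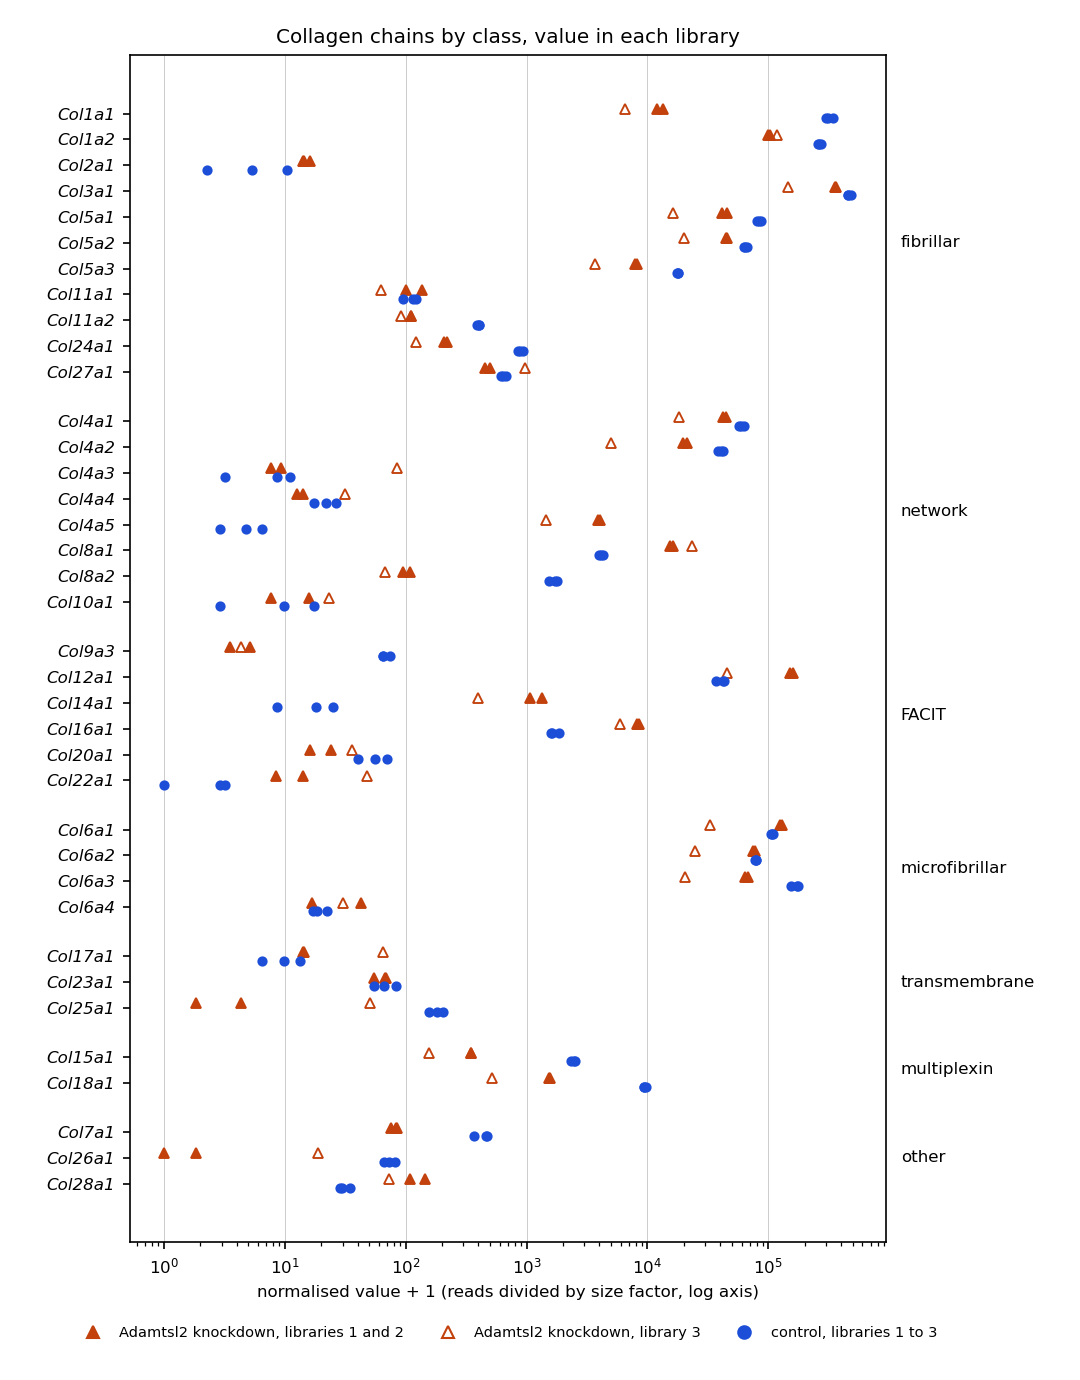
Normalised counts of collagen chains (plus 1, log axis) of the 37 collagen chains by class, with 1 point per library: knockdown as triangles (library 3 open) above control as circles. Knockdown lies left of control for Col1a1 and Col8a2 and right of it for Col4a5, Col8a1, Col14a1 and Col16a1, while Col6a1 and Col27a1 overlap.

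Of the 8 network chains, 7 were tested: 2 were higher, 1 was lower and 4 did not pass. Of all genes tested, 45.2% passed (21.7% higher and 23.5% lower), a share near that of this class. The widest rise was in Col4a5, a basement membrane chain whose loss causes Alport syndrome in people and which assembles with the chains of Col4a3 and Col4a4 or of Col4a6. Col4a5 (chrX) measured 3916, 4048 and 1438 normalised counts in knockdown libraries 1 to 3, against 5.45, 3.79 and 1.90 in control libraries 1 to 3, where 5, 3 and 2 reads were counted. The change was 9.31 ± 0.51 on the log2(normalised count + 1) scale (adjusted p = 6e-05) and 9.80 without knockdown library 3. Col4a5 reached the minimum for testing only in knockdown libraries, so this adjusted p is no separate support for the rise. Every knockdown library held at least 1286 reads of Col4a5 where no control library held more than 5.

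Its possible partners were scarce in all libraries. Col4a4 had 13.3, 11.7 and 30.2 normalised counts in knockdown libraries 1 to 3 and 20.7, 16.4 and 25.7 in control libraries 1 to 3, which overlapped (-0.28 ± 0.44, adjusted p = 0.64). Col4a3, which was below the minimum for testing, had 10, 8 and 75 reads in knockdown libraries 1 to 3 against 2, 8 and 8 reads in control libraries 1 to 3. Only knockdown library 3 stood out for Col4a3. In knockdown libraries 1 and 2, where Col4a5 was highest, neither gene was above its highest control library in normalised counts; Col4a6 was not analysed here.

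Col4a1 and Col4a2, the chains of the common basement membrane trimer, start head to head on chromosome 8, where their first exons overlap by 22 bases. Col4a1 measured 44627, 42552 and 18330 in knockdown libraries 1 to 3 against 59605, 62474 and 57060 in control libraries 1 to 3. Col4a2 measured 21421, 19625 and 4975 in knockdown libraries 1 to 3 against 40800, 42554 and 38569 in control libraries 1 to 3. For both, each knockdown library was below each control library and knockdown library 3 was lowest. Neither passed in limma with all libraries (-0.87 ± 0.37, adjusted p = 0.10 for Col4a1; -1.67 ± 0.57, adjusted p = 0.056 for Col4a2). Without knockdown library 3 the differences were -0.45 for Col4a1 (adjusted p = 4.9e-05) and -0.99 for Col4a2 (adjusted p = 1.6e-07), and Col4a2 also passed without knockdown library 1 (-2.04, adjusted p = 0.045) and with DESeq2 on all libraries (-1.41, adjusted p = 0.018).

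Type VIII collagen, a short-chain collagen of vessel walls and of the cornea's Descemet membrane, changed in both its genes and in opposite directions. Col8a1 rose to 16165, 15366 and 23177 normalised counts in knockdown libraries 1 to 3, against 4136, 4265 and 3947 in control libraries 1 to 3 (2.12 ± 0.19, adjusted p = 0.00031). Col8a2 fell to 94.5, 108 and 66.0 in knockdown libraries 1 to 3, against 1711, 1530 and 1772 in control libraries 1 to 3 (-4.23 ± 0.21, adjusted p = 4.6e-05). Neither gene's groups came near each other. Of the 5 smooth muscle or pericyte markers, 2 were higher and 2 lower, beside 21.7% and 23.5% of all genes. They summed to 80566 to 84221 in knockdown and 224380 to 256633 in control libraries, mostly Acta2, and their part in type VIII was not tested. Col10a1, the network collagen of hypertrophic cartilage, stayed between 1.90 and 22.4 normalised counts in all libraries and did not pass (0.84 ± 0.78, adjusted p = 0.42).

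Among the 6 FACITs, 5 were tested, of which 2 were higher and 1 was lower, beside 21.7% and 23.5% of all genes. Col14a1, whose product binds fibrils of tendon and skin and regulates their growth, measured 1344, 1063 and 395 normalised counts in knockdown libraries 1 to 3, against 7.63, 24.0 and 17.1 in control libraries 1 to 3. It rose by 5.72 ± 0.60 (adjusted p = 0.00062), with the lowest knockdown library well above the highest control library. Col14a1 reached the minimum in 3 libraries only in knockdown, so this adjusted p is no separate support for the rise. Col16a1, a FACIT made by fibroblasts and smooth muscle, rose by 2.14 ± 0.17 (adjusted p = 0.00024), with 8473, 8229 and 5945 in knockdown libraries 1 to 3 against 1595, 1859 and 1615 in control libraries 1 to 3. Col9a3, a chain of the cartilage FACIT type IX, fell by 3.99 ± 0.29 (adjusted p = 0.00017) to 3, 5 and 3 reads in knockdown libraries 1 to 3, against 67, 51 and 67 reads in control libraries 1 to 3. Col9a3 reached the minimum only in control libraries, so this adjusted p is no separate support for the fall.

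Col12a1 was the most abundant FACIT in both groups, at 10308 normalised counts per kb in knockdown and 3520 in control libraries on average; its product links fibrils in tendon and muscle, and its mutation causes a myopathy in people. It measured 159374, 151066 and 45538 normalised counts in knockdown libraries 1 to 3, against 42030, 42823 and 36699 in control libraries 1 to 3. Knockdown library 3 lay just above the highest control library. The difference of 1.35 ± 0.51 did not pass in limma (adjusted p = 0.075) but passed in edgeR's quasi-likelihood test on recovered reads (1.55, adjusted p = 0.039), in DESeq2 (adjusted p = 0.0034) and in limma with upper-quartile scaling (1.47, adjusted p = 0.043), and it was 1.94 without knockdown library 3 (adjusted p = 4.6e-09). Col20a1 was scarce, at 15.1 to 34.7 in knockdown and 39.2 to 68.6 in control libraries, and was just short of passing (-1.17 ± 0.39, adjusted p = 0.053). It passed with DESeq2 (-1.18, adjusted p = 0.028), with a pseudocount of 5 (adjusted p = 0.048), in limma with no trend (adjusted p = 0.045) and without knockdown library 3 (-1.45, adjusted p = 0.0013). Col22a1, a FACIT of the junction between muscle and tendon, was below the minimum for testing, with 16, 9 and 42 reads in knockdown libraries 1 to 3 and 2, 0 and 2 reads in control libraries 1 to 3; a count of 0 allows up to 3 reads in that library. With no minimum Col22a1 was called higher (3.10, adjusted p = 0.029), and the authors' deposited table gives it as higher in knockdown with an adjusted p of 0.0046.

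Type VI collagen forms beaded microfibrils between the basement membrane and the interstitial matrix, and mutations of its 3 main genes cause Ullrich and Bethlem muscular dystrophies in people. Of the 4 microfibrillar chains, 1 was lower and 3 did not pass, where 23.5% of all genes were lower. Col6a3, the gene of the largest chain of the trimer (chromosome 1), measured 67471, 64450 and 20520 normalised counts in knockdown libraries 1 to 3, against 172089, 174610 and 153795 in control libraries 1 to 3. The groups were well apart, and it fell by 1.90 ± 0.49 (adjusted p = 0.022). That call was lost when any 1 control library was left out (adjusted p 0.069 to 0.077), and without knockdown library 3 the change was -1.34 (adjusted p = 6.4e-08).

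Its partners Col6a1 and Col6a2, which lie 85161 bases apart on chromosome 10, followed another pattern. Col6a1 measured 129070, 124232 and 32653 in knockdown libraries 1 to 3, against 108500, 106782 and 105114 in control libraries 1 to 3. Knockdown libraries 1 and 2 were above every control library and knockdown library 3 far below, so the difference of -0.41 ± 0.56 (adjusted p = 0.59) turned to 0.25 without that library (adjusted p = 0.0038). Col6a2 had 77494, 74690 and 24864 in knockdown libraries 1 to 3 and 79782, 78980 and 76845 in control libraries 1 to 3, and did not pass with it (-0.58 ± 0.47, adjusted p = 0.35) or without it (-0.05, adjusted p = 0.47). Col6a4, a chain that can stand in for that of Col6a3 in mice, stayed between 15.8 and 41.8 in all libraries (0.53 ± 0.41, adjusted p = 0.33).

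Of the 3 transmembrane chains, 1 was lower, beside 23.5% of all genes. Col25a1, which is made by developing muscle and is needed for motor axons to enter it in mice, had 1, 4 and 44 reads in knockdown libraries 1 to 3, against 165, 160 and 164 reads in control libraries 1 to 3. All knockdown libraries were below all control libraries, but knockdown library 3 held most of the reads of its group. It fell by 4.61 ± 1.19 in limma (adjusted p = 0.022), and the change was -5.99 without knockdown library 3. Col25a1 reached the minimum in 3 libraries only in control, so this adjusted p is no separate support for the fall. The call was lost in edgeR (-3.37, adjusted p = 0.070) and in limma without knockdown library 2 or any 1 control library (adjusted p 0.065 to 0.077). Col17a1, a hemidesmosome component of skin, had 13.3, 13.4 and 63.7 normalised counts in knockdown libraries 1 to 3 and 5.45, 8.84 and 12.4 in control libraries 1 to 3, and did not pass with knockdown library 3 (1.32 ± 0.69, adjusted p = 0.17) or without it (0.60, adjusted p = 0.19). Col23a1 overlapped between the groups, at 53.9 to 68.2 in knockdown and 53.4 to 82.1 in control libraries (-0.07 ± 0.25, adjusted p = 0.83).

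Of the 2 multiplexins, 2 were lower, beside 23.5% of all genes. Col15a1 encodes a basement membrane proteoglycan whose loss gives a mild myopathy in mice. Col15a1 measured 348, 344 and 154 normalised counts in knockdown libraries 1 to 3. Control libraries 1 to 3 had 2514, 2488 and 2331 (-3.20 ± 0.33, limma adjusted p = 0.00061). Col18a1, whose C-terminal fragment is endostatin, measured 1531, 1557 and 519 in knockdown libraries 1 to 3 against 9653, 9374 and 9304 in control libraries 1 to 3 (-3.14 ± 0.44, adjusted p = 0.0020). The groups were far apart for both genes in every library, and without knockdown library 3 the changes were -2.82 for Col15a1 and -2.61 for Col18a1.

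Of the 3 remaining chains, 2 were lower and 1 was higher, beside 23.5% and 21.7% of all genes. Col7a1, the anchoring fibril collagen of the skin's basement membrane, fell by 2.41 ± 0.17 (adjusted p = 0.00015), with 82.9, 74.4 and 82.7 normalised counts in knockdown libraries 1 to 3 against 470, 365 and 462 in control libraries 1 to 3. Col28a1, a chain with von Willebrand factor A domains found near Schwann cells, rose by 1.76 ± 0.31 (adjusted p = 0.0051), with 144, 107 and 71.5 in knockdown libraries 1 to 3 against 33.8, 27.8 and 28.5 in control libraries 1 to 3. Neither gene's groups overlapped. The 3 epithelial markers measured, of 5 listed, were Cdh1, Krt8 and Krt14. They summed to 1951 to 2722 in knockdown and 72.2 to 80.8 in control libraries, mainly through Krt14, which was called higher. Krt8 was lower (-2.90 ± 0.53, limma adjusted p = 0.0059), though it reached the minimum only in control libraries, and Cdh1 did not pass. The part of these markers in the result for Col7a1 was not tested. Col26a1, first described in testis and ovary, had 1, 0 and 16 reads in knockdown libraries 1 to 3 against 60, 57 and 84 reads in control libraries 1 to 3. It fell by 4.49 ± 1.09 in limma (adjusted p = 0.017), and the change was -5.76 without knockdown library 3. Col26a1 reached the minimum in 3 libraries only in control, so this adjusted p is no separate support for the fall. The call was lost in edgeR (-3.61, adjusted p = 0.059) and in limma without knockdown library 1 or any 1 control library (adjusted p 0.053 to 0.066).

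The make-up of the collagen pool also differed, as the plot of class shares shows. Dividing each value by the spliced length of the principal transcript gives levels that can be set side by side between genes. On this scale fibrillar chains held 53.1%, 53.6% and 64.4% of the summed collagen level in knockdown libraries 1 to 3, against 70.0%, 71.1% and 70.8% in control libraries 1 to 3. Every knockdown library was below every control library. The share of FACITs was 8.32%, 8.15% and 6.09% in knockdown libraries 1 to 3, against 1.35%, 1.33% and 1.23% in control libraries 1 to 3, most of it Col12a1. Network chains held 8.11% ± 1.47 in knockdown and 5.55% ± 0.0499 in control libraries, and multiplexins 0.194% ± 0.0277 and 0.822% ± 0.0295 (SD, n = 3 each). These shares are descriptions, with no test.

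Type VI chains held 31.0%, 30.9% and 19.4% of the level in knockdown libraries 1 to 3, against 22.2%, 21.2% and 21.6% in control libraries 1 to 3, so the knockdown libraries lay on both sides of the controls. Col1a1 alone had 1.21%, 1.12% and 1.28% in knockdown libraries 1 to 3, against 17.7%, 18.7% and 17.5% in control libraries 1 to 3. Col1a2 took 10.2% in each of knockdown libraries 1 and 2, 25.7% in knockdown library 3, and 16.6% to 16.9% in control libraries. Type V chains together kept close shares, at 6.56% to 7.18% in knockdown and 7.52% to 7.63% in control libraries. Col3a1 had 34.4%, 35.1% and 30.7% in knockdown libraries 1 to 3, each above the 27.9% to 28.6% of the control libraries, although its own level was lower in knockdown.

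**Figure D3:**
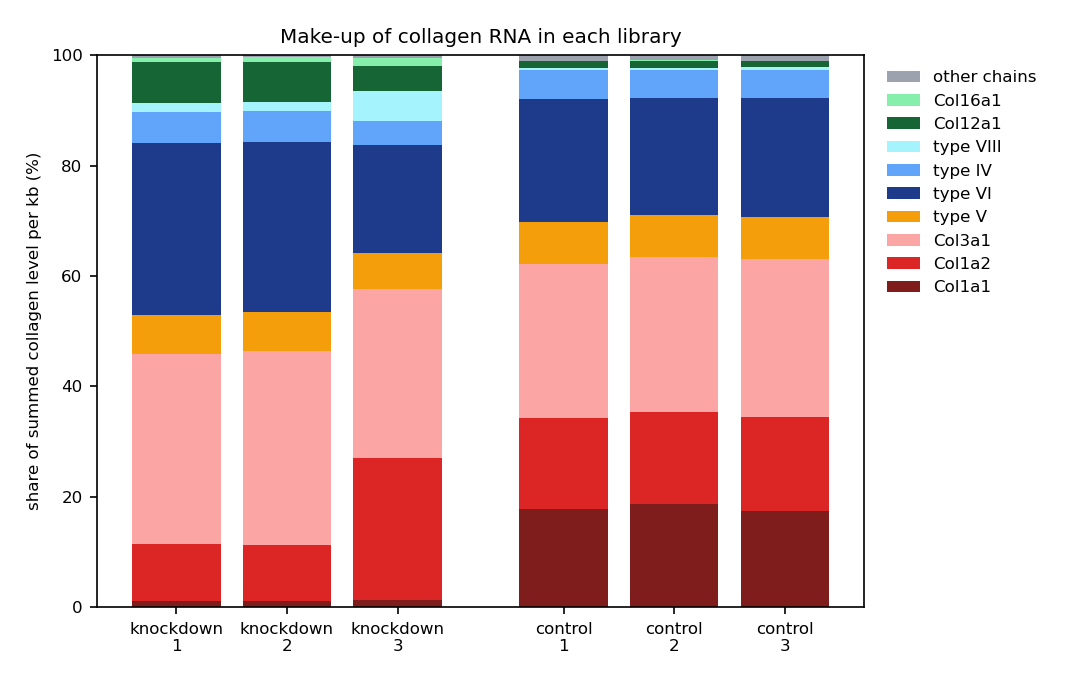
Share (%) of each collagen type or chain in the summed collagen level per kb of spliced length, 1 stacked bar per library, knockdown libraries left of control libraries. Col1a1 narrows to 1.12% to 1.28% in knockdown against 17.5% to 18.7% in control, Col12a1 widens, and knockdown library 3 has more Col1a2 and less type VI than knockdown libraries 1 and 2.

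Between chains that can assemble into the same trimer, the ratio of messenger RNA levels differed between the groups for some pairs, those of types I, VIII and XI among them. Type I collagen is usually made of 2 α1 chains and 1 α2 chain, and the ratio of Col1a1 to Col1a2 per kb was 0.119, 0.110 and 0.0499 in knockdown libraries 1 to 3, against 1.06, 1.13 and 1.04 in control libraries 1 to 3. The ratio of Col8a1 to Col8a2 was 145, 121 and 298 in knockdown libraries 1 to 3 and 2.05, 2.36 and 1.89 in control libraries 1 to 3. For Col11a1 to Col11a2 it was 0.868, 0.634 and 0.478 in knockdown libraries 1 to 3 and 0.196, 0.173 and 0.211 in control libraries 1 to 3. These groups did not overlap for any of the 3 ratios, and the absolute value depends on the transcript length chosen: with all annotated exons, the mean Col1a1 to Col1a2 ratio was 0.195 in knockdown and 2.26 in control libraries.

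Other partners gave smaller differences or overlapped. Col6a3 to Col6a1 was 0.238, 0.236 and 0.286 in knockdown libraries 1 to 3, against 0.722, 0.745 and 0.666 in control libraries 1 to 3, while Col6a1 to Col6a2 overlapped between the groups (1.26 to 1.60 in knockdown, 1.30 to 1.32 in control). Col4a1 to Col4a2, from the head-to-head pair, was 2.03, 2.11 and 3.59 in knockdown libraries 1 to 3 and 1.42 to 1.44 in control libraries. Within type V, Col5a1 to Col5a2 was 0.631 to 0.789 in knockdown and 1.00 to 1.04 in control libraries, whereas Col5a3 to Col5a1 overlapped (0.248 to 0.314 in knockdown, 0.283 to 0.299 in control). The neighbours Col5a2 and Col3a1 also overlapped, at 0.105 to 0.117 in knockdown and 0.115 to 0.116 in control libraries. Ratios were described without a test.

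**Figure D4:**
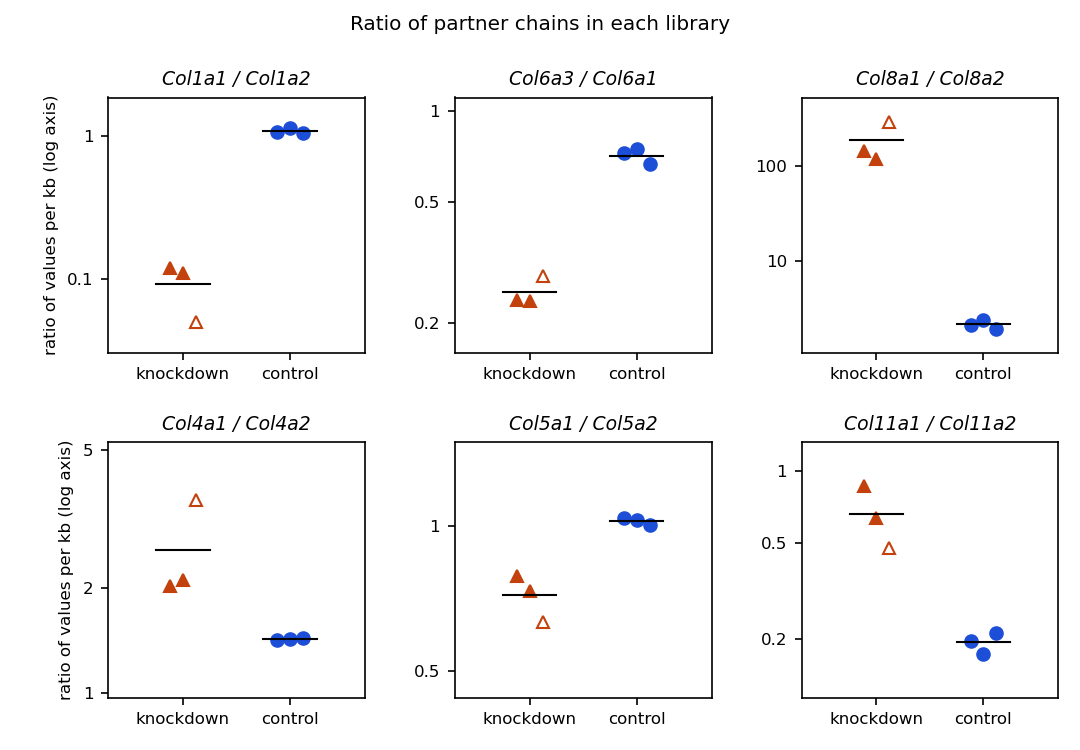
Ratio of levels per kb between partner chains of 6 collagen types in each library, on log axes, knockdown (triangles, library 3 open) left of control (circles), with lines at the group means. The Col1a1 to Col1a2 ratio is lower and the Col8a1 to Col8a2 ratio higher in every knockdown library than in any control library.

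The genes that modify, fold, export, trim, cross-link, bind and cleave collagen changed in both directions. Of 65 such genes listed, 55 were in the table and all were tested: 15 were higher, 14 were lower and 26 did not pass, beside 45.2% of all genes that passed (21.7% higher and 23.5% lower), with a median log2 fold change of -0.19. Without knockdown library 3, 26 were higher and 22 lower, beside 78.5% of all genes, and the median turned to 0.15. Tll1 and Fap, counted among those higher, reached the minimum only in knockdown, and Mmp16 reached it in 3 libraries only there. The counts per step below are of few genes and stand beside these same shares of all genes. Prolyl and lysyl hydroxylases modify the chains so that the helix is stable and can be cross-linked. Of 10 genes of prolyl hydroxylation, 3 were higher and 2 lower. P3h3, of the prolyl 3-hydroxylase family, rose to 3576, 3430 and 2212 normalised counts in knockdown libraries 1 to 3, against 786, 767 and 789 in control libraries 1 to 3 (1.94 ± 0.20, adjusted p = 0.00065). P4ha1, a catalytic subunit of the main prolyl 4-hydroxylase, fell by 0.48 ± 0.11 (adjusted p = 0.015) and P4ha2 fell by 0.90 ± 0.25 (adjusted p = 0.028), while P4hb, the subunit they share, rose by 0.66 ± 0.19 (adjusted p = 0.035). The calls of all 3 were lost when any 1 control library was left out, with adjusted p up to 0.082 for P4ha1, 0.096 for P4ha2 and 0.13 for P4hb; P4ha1 was also lost without knockdown library 2, and P4hb without knockdown library 1 or 2.

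Among 6 genes of lysyl hydroxylation, Plod2, the telopeptide lysyl hydroxylase, rose to 11321, 11283 and 12118 normalised counts in knockdown libraries 1 to 3, against 5979, 5777 and 6095 in control libraries 1 to 3 (0.96 ± 0.11, adjusted p = 0.00086). Tmem38b, an endoplasmic reticulum cation channel whose loss causes brittle bones in people, fell to 511, 498 and 364, against 5344, 5496 and 5552 in control libraries 1 to 3 (-3.59 ± 0.16, adjusted p = 2.9e-05). Of 10 genes of folding and export, 3 were lower and 1 was higher. Creb3l1, a transcription factor that activates type I collagen genes in bone, fell by 0.93 ± 0.16 (adjusted p = 0.0048), Klhl12, which enlarges the vesicles that carry procollagen, fell by 0.68 ± 0.12 (adjusted p = 0.0050), and Tango2, a protein first found in a screen for Golgi organisation, rose by 0.76 ± 0.15 (adjusted p = 0.0074). Tango2 was the only higher gene of this list, and nothing measured here ties it to collagen export. Serpinh1, the collagen chaperone HSP47, named here after its values were seen, fell by 1.09 ± 0.20 (adjusted p = 0.0058).

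Procollagen ends are cut off outside the cell before fibrils form, and of 7 genes of that step 3 were higher and 2 lower. Pcolce2 and Pcolce, which encode enhancers of the C-proteinase, rose by 3.74 ± 0.36 (adjusted p = 0.00047) and 1.13 ± 0.18 (adjusted p = 0.0036). The C-proteinase gene Bmp1 itself fell by 1.34 ± 0.34 (adjusted p = 0.021; up to 0.076 with any 1 control library left out). Adamts14, an N-proteinase, fell to 188, 168 and 101 normalised counts in knockdown libraries 1 to 3, against 4757, 4846 and 4369 in control libraries 1 to 3 (-4.97 ± 0.25, adjusted p = 4.5e-05). Of 7 cross-linking genes 1 rose and 1 fell. Lox, which starts the lysine cross-links, rose by 0.95 ± 0.28 (adjusted p = 0.035; up to 0.11 with any 1 control library or knockdown library 1 or 2 left out), and Tgm2, a transglutaminase, fell by 2.39 ± 0.30 (adjusted p = 0.0013).

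Of 8 collagen receptors, 2 were higher and 3 lower. Itga1, whose product binds type IV collagen, rose by 3.44 ± 0.44 (adjusted p = 0.0013) and Ddr2, a receptor kinase for fibrillar collagen, by 1.12 ± 0.23 (adjusted p = 0.0097). The collagen-binding integrin chains Itga10 and Itga11 were lower, at -1.84 ± 0.18 (adjusted p = 0.00048) for Itga10 and -3.11 ± 0.48 (adjusted p = 0.0030) for Itga11. Of 7 collagen-cleaving proteases, 4 were higher and 2 lower. Mmp14, a membrane-bound collagenase, rose to 74239, 72980 and 144315 normalised counts in knockdown libraries 1 to 3, against 15099, 16355 and 15177 in control libraries 1 to 3 (2.57 ± 0.30, adjusted p = 0.00097). Mmp16, a related membrane protease, measured 1914, 2013 and 2591 in knockdown libraries 1 to 3 against 4.36, 12.6 and 9.50 in control libraries 1 to 3 (7.88 ± 0.38, adjusted p = 3.7e-05). It reached the minimum in 3 libraries only in knockdown, so this adjusted p is no separate support for the rise. The gelatinase gene Mmp9 fell by 1.73 ± 0.26 (adjusted p = 0.0029) and Prep, a peptidase of proline-rich fragments, fell by 1.83 ± 0.45 (adjusted p = 0.019; up to 0.067 with any 1 control library left out).

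**Figure D5:**
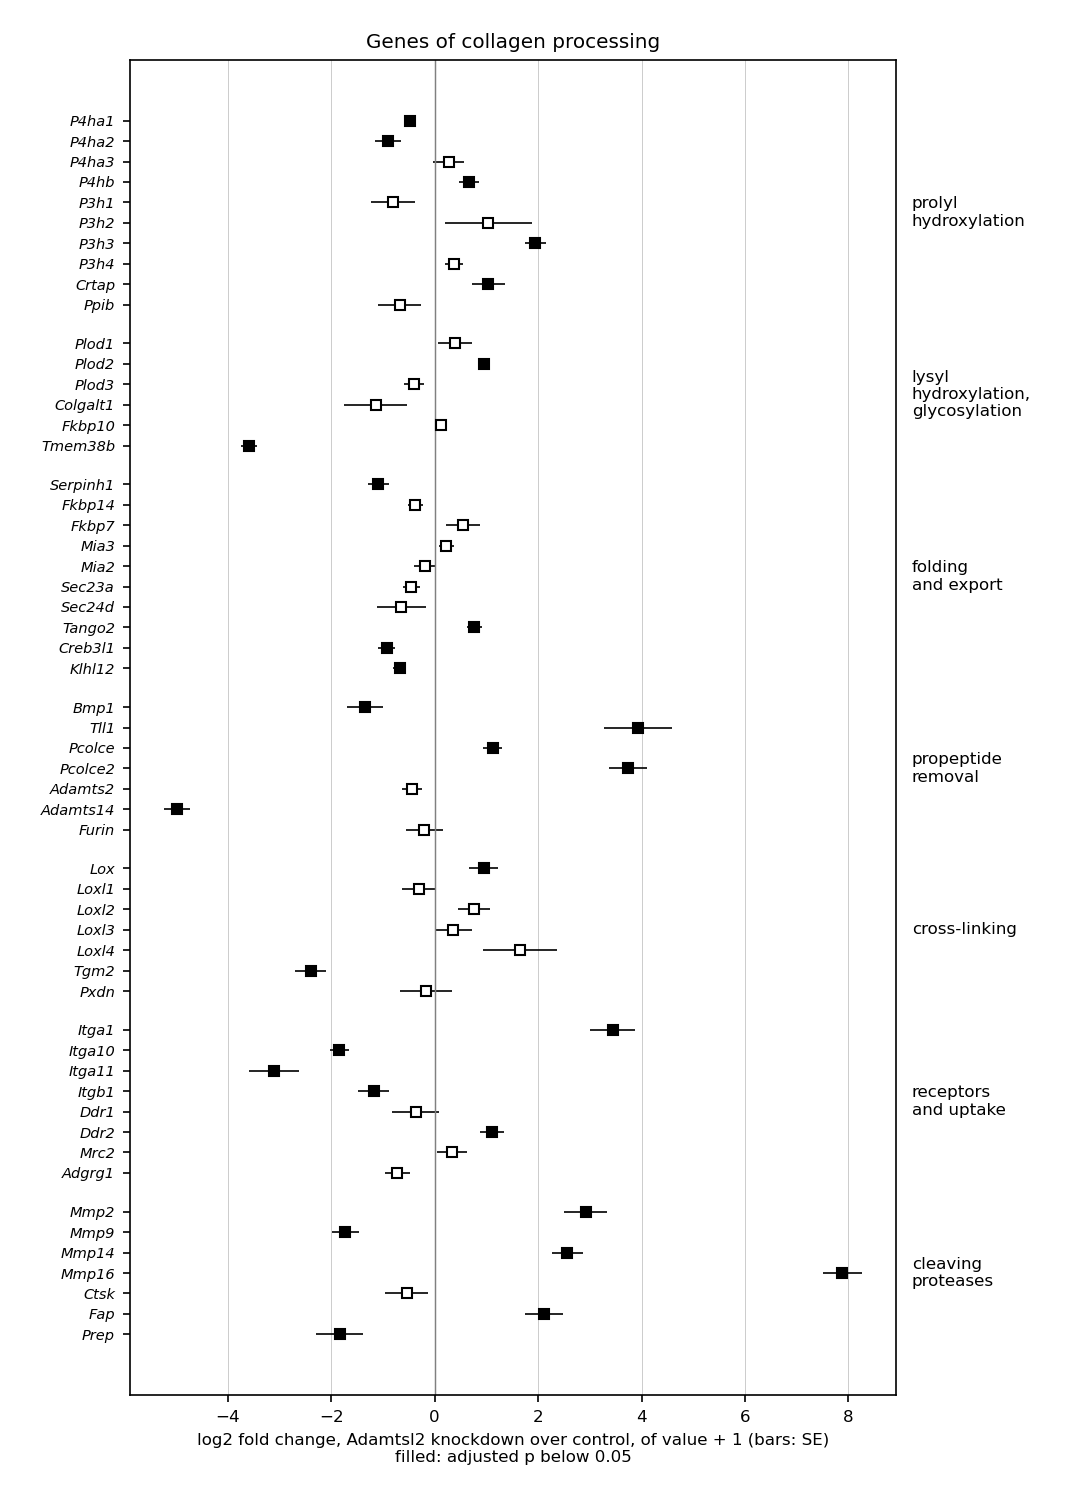
Log2 fold change (knockdown over control, SE bars) of the 55 collagen processing genes by step, from hydroxylation to cleavage, filled where the adjusted p is under 0.05. Every step as listed holds filled points on both sides of 0, for folding and export through Tango2 alone on the positive side. Mmp16 lies farthest to the positive side and Adamts14 and Tmem38b farthest to the negative side.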

How the data were processed

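Messenger RNA of 6 C2C12 libraries was sequenced after poly(A) selection, per the labels' protocols, and groups came from the sample titles. Per the submitters' processing notes, Trimmomatic 0.36, featureCounts of Subread 1.5.2, DESeq2 and GRCm38 were used; the sources used here do not name the aligner, the annotation release or the strand setting. Without a strand setting, reads of overlapping genes cannot be told apart; at most 6.07% of a chain's exonic bases (Col9a3, with Tcfl5) overlap another gene's exons.

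The deposited signal per gene and library is a read count that the authors divided by a size factor. The deposited table also holds the authors' log2 fold change and the authors' p-value and adjusted p-value, per the file headers. All values (100%) were whole multiples of 1 read within 0.01 reads, and 1 read was worth 0.829 to 1.26 units, so counts as low as 3 reads are at the limit of detection.

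A normalised unit calls for a test on the log scale, so limma 3.58.1 in R 4.3.3 modelled log2(value + 1), two-sided, with its trend option and no block, and with Benjamini-Hochberg adjustment over all 16245 genes that reached 10 in at least 3 libraries; 609 genes did not. With 3 against 3 libraries an exact permutation test cannot go below 0.1. Alternatives were count tests of the recovered reads (edgeR 4.0.16, DESeq2 1.42.0), other scalings and pseudocounts, no filter, a replicate block and leaving out each library. The fit was also run on simulated reads with few changed genes, the same scatter for every gene and no library standing apart. Here many genes changed and knockdown library 3 stood apart, so that run does not show how the fit behaves on these data. Levels per kb used the spliced length of the principal transcript in GENCODE M21.

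The collagen chains, their classes and the lists of markers and processing genes were chosen with earlier results of these data known, so no p-value is adjusted over a list and no list is tested. Values in every library are given for up to 3 called chains per direction and class, the most abundant chain of each class and all trimer partners; of each processing step, up to 2 called genes per direction by smallest adjusted p are named. Protein sequences were not used here.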

Additional observations from a re-analysis of the deposited data

How the results depend on the processing

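Of the 35 tested chains, 26 kept their call (higher, lower or not past the threshold) without knockdown library 3. Without knockdown libraries 1 and 2 in turn, 33 and 34 kept it, and without a control library 30 or 31 did. With DESeq2, 31 kept it (4 more passed), and with edgeR 32. The count was 34 with upper-quartile scaling, no trend or a pseudocount of 5. It was 35 with TMM scaling, no filter or a pseudocount of 0.5. A chain that passed in neither fit counts as kept even where its sign turned, as for Col11a1 without knockdown library 3 (-0.21 to 0.09). Upper-quartile scaling moved the median of all genes to 0.11 (log2). Col6a1 lay between -0.75 and 0.25 with single libraries left out, and was above 0 only without knockdown library 3. In deviations from the mean of their group, same-numbered libraries correlated at 0.017, 0.10 and 0.14 over genes. Knockdown library 1 correlated best with control library 2 (0.12), while knockdown libraries 2 and 3 each correlated best with the control library of the same number. Knockdown library 3 stood apart and so shapes the knockdown mean, and these values cannot settle whether the numbers mark pairs. With the replicate number as a block, 14 chains were lower and 5 higher, and P4ha1 and P4hb no longer passed (adjusted p 0.069 and 0.092).

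Leaving out each library in turn gave 2443 to 6269 genes higher and 2648 to 6485 lower, 10 to 20 collagen chains lower (10 without any 1 control library) and 5 to 8 higher, 5 to 9 fibrillar chains lower and 0 to 1 higher, 1 to 3 network chains lower, 1 to 2 FACITs lower, 0 to 1 microfibrillar chains higher and 0 to 1 lower, 0 to 1 transmembrane chains lower, 1 to 2 other chains lower, and 12 to 26 processing genes higher and 9 to 22 lower. edgeR gave 12 collagen chains lower, DESeq2 17. edgeR gave 0 transmembrane chains lower and 1 other chain lower, and 8 collagen chains higher without knockdown library 3, a fit added after seeing the data. DESeq2 gave 2 network chains and 2 FACITs lower, and a pseudocount of 5 or no trend also gave 2 FACITs lower. The cause was not tested.

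Shares depend on the length used. Per kb of all annotated exons, added after seeing the data, fibrillar chains held 49.8% in knockdown and 66.9% in control, and network chains 10.2% and 7.36%; in control, FACITs held 1.44%, microfibrillar chains 23.4% and transmembrane chains 0.0132%. Not divided by length, FACITs held 13.6% in knockdown and 2.44% in control, and multiplexins 0.161% and 0.687%; in control, network chains held 6.13%, microfibrillar chains 20.3%, transmembrane chains 0.0147% and other chains 0.0310%. Depth limits Col2a1, Col4a3, Col4a4, Col6a4, Col10a1, Col17a1, Col20a1 and Col22a1, which had few reads in every library.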
